A study of Saccharomyces cerevisiae with 4 samples.

Results

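The genes described here are 45 nuclear genes of budding yeast that serve the making of the respiratory chain without being part of it: assembly factors of complexes II, III and IV and of the ATP synthase, and the activators that let single mitochondrial messenger RNAs be processed and translated. They were taken by name from a table of 5897 genes, and all 45 were found, each with the same symbol and the same coordinates in the R64 genome annotation. By role, 15 were counted as activators or processing factors of 1 mitochondrial message or a few, 4 as assembly factors of complex III, 10 as heme and copper factors of complex IV, 8 as other assembly factors of complex IV, 5 as assembly factors of the ATP synthase and 3 as assembly factors of complex II. The RNA came from the Saccharomyces cerevisiae strain CY, grown for 10 h with shaking in rich medium of yeast extract, peptone and glucose. The non-stress group (2 libraries) was kept at 30 °C with 2% glucose and the stress group (2 libraries) at 36 °C with 10% glucose, so temperature and sugar changed together and their effects cannot be told apart. Growth stage and the sugar left in the medium at 10 h are not among the values used here. No genotype difference between the groups is given in the labels. Nothing in the labels says that the libraries of a group came from separate cultures, and p-values therefore measure only the spread between these libraries, which may be technical.

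As background, complexes III and IV and the ATP synthase of yeast are mosaics: a few core subunits are made inside the mitochondrion from mitochondrial DNA, and the rest are made in the cytosol from nuclear genes and imported. Each mitochondrial message needs its own nuclear-encoded activators, which commonly bind near the start of the message and bring it to the ribosome at the inner membrane. Assembly factors then hold the new core subunits, insert heme, copper or iron-sulfur centres and add the imported partners, and they leave before the complex is finished. Yeast can grow on glucose by fermentation without any of these genes, and many were found as mutants that could not grow on carbon sources that must be respired.

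Levels are given as FPKM, fragments scaled to coding length and to the mapped fragments of the library, which allows levels of different genes to be set side by side. Estimated depth was 17580000 to 18340000 fragments per library, the least covered of the 45 genes had about 132 fragments in any library, and Pearson's r between replicate libraries, across genes, was 0.9965 for the non-stress pair and 0.9979 for the stress pair. Of all 5784 genes that passed the filter on low values, 39.8% were higher and 47.9% lower under stress at a Benjamini-Hochberg adjusted p of 0.05 (limma), 87.7% in all, so that nearly any group of genes holds many calls. That is 2300 genes higher and 2771 lower; with cytosolic ribosomal protein genes left out of the sums to which libraries are scaled it was 1606 and 3574, and the median log2 fold change of all genes went from -0.14 to -0.57. Of the 10 genes of a list that glucose is known to repress, 9 were higher in the libraries labelled 10% glucose, among them FBP1 (10.4 to 3867 mean FPKM) and SFC1 (4.46 to 1784 mean FPKM), and the exception, ADH2, named after its values were seen, was 4.68-fold lower (1597 to 341 mean FPKM). FPKM gives a gene's part in a library: the amount of RNA per cell was not measured, and fewer cells with a message cannot be told apart from less of it per cell.

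All 45 genes passed the filter. Of these, 42 were higher under stress (93.3%, against 39.8% of all genes tested), 1 was lower (against 47.9%) and 2 were not called, so that 43 were called in either direction (against 87.7%). At least 2-fold higher on the log2(FPKM + 1) scale were 32 of the 45, against 19.0% of all genes tested, and at least 4-fold higher were 21, against 8.28%. None was 2-fold lower. The median log2 fold change was 1.91, beside -0.14 for all genes tested. The groups did not overlap for 43 of the 45 genes, a share close to the 93.8% of all genes tested; 42 of these were higher under stress, against 42.5% of all genes tested. The median FPKM of the 45 genes was 45.3 and 42.1 in the non-stress libraries, a little below the 56.1 and 53.4 of all genes tested. In the stress libraries it was 169.7 and 176.2, while that of all genes was 47.5 and 48.3. Together the 45 genes held 0.25% and 0.238% of the summed FPKM in the non-stress libraries and 1.29% and 1.31% in the stress libraries.

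**Figure D1:**
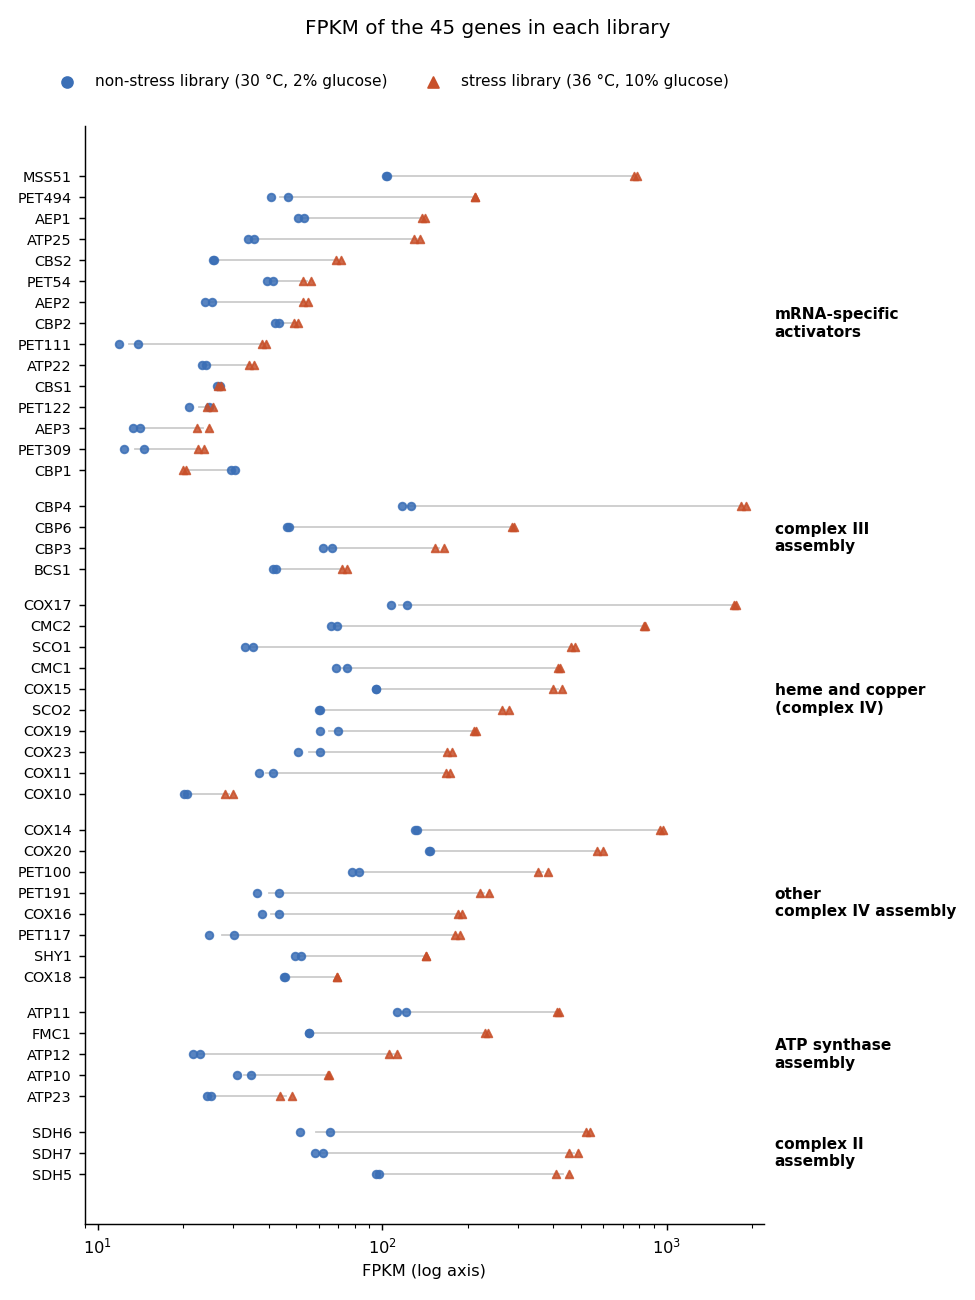
FPKM (horizontal log axis) of each of the 45 genes in the 2 non-stress libraries (blue circles) and the 2 stress libraries (orange triangles), grouped by role and joined by a grey line between the group means. The highest stress values are those of CBP4 and COX17, and CBP1 is the gene whose stress libraries lie below its non-stress libraries.

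A sequence feature that the choice of genes did not use was shared by most of them. The RNA-binding protein Puf3 of yeast binds the element TGTANATA in the untranslated tail of messages for mitochondrial proteins, and COX17 is its best-studied target. The element was searched on the coding strand in the 200 bases after the stop codon. It was present for 38 of the 45 genes (84.4%), against 14.4% of 5814 genes with the same coordinates in file and annotation. On the other strand of the same windows it was present for 17.8% of the 45 genes and 13.3% of all genes. There the joint share of A and T is the same, but the shares of single bases are not matched. The windows of the 45 genes were 67.0% A and T, beside 68.2% for all genes. When a C was also required 2 bases before the element, 48.9% of the 45 genes held a match against 4.32% of all genes. The sites below are shown because they carry this feature: they belong to the site-bearing gene with the largest rise in each role group, to COX17 with both of its sites, and to COX10 and CBP1, whose levels rose 1.42-fold and fell. The element is in capitals, 5′ to 3′ on the coding strand, with coordinates in R64.

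CBP4, chrVII:845779-845808, minus strand: tatttgtacacTGTAAATAggtttaaaaat
COX17 site 1, chrXII:131155-131184, minus strand: caaccatttctTGTATATAtaagaataggt
COX17 site 2, chrXII:131110-131139, minus strand: tatatactaccTGTAAATAtgtgcgatgca
COX14, chrXIII:14381-14410, minus strand: atttacgaaccTGTATATAataattaaatc
SDH7, chrIV:1470429-1470458, plus strand: tttattgcgctTGTAAATAagaaatccata
MSS51, chrXII:550538-550567, minus strand: atctcaatatcTGTAAATAcaaaaatacta
ATP12, chrX:87492-87521, minus strand: tcgaaaatttcTGTAAATAaacatgattat
COX10 site 1, chrXVI:224283-224312, minus strand: gtcattaatctTGTAAATAaatatttaaac
CBP1, chrX:40018-40047, plus strand: aaacaaatttcTGTAAATAtatactaaatc

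The first site began between 2 and 142 bases after the stop codon, with a median of 52, and 32 of the 38 first sites began within 100 bases. Of the 38 genes, 6 held 2 sites: COX10, COX11, COX17, COX23, SCO1 and FMC1. None of the 44 sites lay inside another annotated gene. The 7 genes without a match were CBS1, PET122, PET54 and ATP22 among the activators, and ATP10, COX19 and SDH6 among the assembly factors. As a description, the median log2 fold change was 2.08 for the 38 genes with the element and 0.54 for the 7 without it, and 0.49 and -0.21 for all genes with and without it. Within the 15 activators alone, 11 of them with the element, it was 1.41 with and 0.27 without. In a list of 16 other assembly and membrane insertion genes the order was reversed, at 1.7 with and 2.14 without. As 14 of these 16 held the element, the second median rests on very few genes. For 34 nuclear subunit genes (6 with the element) the medians were 3.8 and 3.89. For 18 other genes of mitochondrial RNA and translation (13 with it) they were 1.13 and 0.58. These differences were not tested. In a window of 100 bases the medians of the 45 genes lay closer, at 2.02 for 30 genes with the element and 1.63 for the others. Single genes departed from these medians: CBP1 held it and was lower, while SDH6 lacked it and had a log2 fold change of 3.16. PUF3 itself, named after its values were seen, was at 31.0 and 25.9 FPKM in the non-stress libraries and 53.5 and 51.4 in the stress libraries (log2 fold change 0.86 ± 0.0888 SE). A match in these letters does not show that the message was bound.

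Complex III, the cytochrome bc1 complex, has a single subunit made in the mitochondrion, cytochrome b, encoded by COB. Its 4 assembly factors were all higher under stress (against 39.8% of all genes tested), by log2 fold changes from 0.80 to 3.92. CBP4 (chrVII:845893-846405, minus strand), which joins the newly made cytochrome b, had 126.6 and 117.4 FPKM in the non-stress libraries and 1829 and 1903 in the stress libraries. This was a 15.3-fold rise (log2 fold change 3.92 ± 0.0554 SE, adjusted p = 1.56e-11 by limma). No other of the 45 genes had a larger log2 fold change, and the groups were far apart.

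CBP3 and CBP6 form a pair that sits at the exit of the mitochondrial ribosome, helps translate COB and receives cytochrome b. CBP6 went from 47.0 and 46.2 to 285.1 and 290.4 FPKM, a 6.17-fold rise, and CBP3 from 66.8 and 61.8 to 164.9 and 153.6 FPKM, a 2.48-fold rise. The level of CBP6 over that of CBP3 went from 0.704 and 0.747 in non-stress to 1.73 and 1.89 in stress libraries. Such a ratio within a library is the same when all its values are multiplied by 1 factor, though not under quantile normalization. BCS1, the inner-membrane ATPase that moves the folded Rieske protein across the membrane, rose 1.76-fold, from 42.3 and 41.3 to 75.1 and 72.2 FPKM.

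Of the 4 factors that act on the COB message itself, 2 were higher, 1 was lower and 1 was not called. These 4 genes are too few to set their counts apart from the 39.8% higher and 47.9% lower among all genes tested. CBS2, a translational activator of COB, rose from 25.7 and 25.4 to 68.8 and 71.6 FPKM (log2 fold change 1.42 ± 0.0639 SE). CBS1, the other translational activator of COB, was at 26.2 and 26.9 FPKM in the non-stress and 27.3 and 26.5 in the stress libraries; the groups overlapped and the gene was not called (log2 fold change 0.01 ± 0.0725 SE, adjusted p = 0.858 by limma). CBP1 (chrX:38005-39969, plus strand), which protects the COB message from degradation, was the single gene of the 45 that fell, from 29.4 and 30.3 to 20.0 and 20.5 FPKM (log2 fold change -0.54 ± 0.0743 SE, adjusted p = 9.9e-05 by limma), and it was lower under every scaling tried, with log2 fold changes of -0.96 to -0.18. CBP2, which helps splice an intron of COB, was 1.16-fold higher, at 43.6 and 42.1 against 49.0 and 50.7 FPKM (adjusted p = 0.0107 by limma), but in limma the call was lost without stress replicate 1 or 2 (adjusted p = 0.0576 and 0.123) and with equal FPKM sums (0.125), and the sign turned to -0.22 when cytosolic ribosomal protein genes were left out of the sums. For CBS1 that same rescaling gave -0.41, while quantile normalization gave 0.35, both past the threshold, so its direction depends on scaling.

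Complex IV, cytochrome c oxidase, has a core of 3 mitochondrially made subunits, of which Cox1 and Cox2 carry its heme a and copper. Among its 10 heme and copper factors all were higher under stress, 9 of them at least 2-fold, with a median log2 fold change of 2.13. The shares among all genes tested were 39.8% higher and 19.0% at least 2-fold higher. COX17 (chrXII:131205-131414, minus strand), the small copper carrier of the intermembrane space that hands copper on to SCO1 and COX11, had 122.4 and 107.6 FPKM in the non-stress libraries and 1725 and 1749 in the stress libraries, a 15.1-fold rise (log2 fold change 3.91 ± 0.0648 SE, adjusted p = 3.44e-11 by limma). SCO1 (chrII:310565-311452, minus strand), which passes copper to the Cox2 subunit, rose 13.8-fold, from 32.96 and 35.17 to 476.4 and 462.3 FPKM. The level of COX17 over that of SCO1 was 3.71 and 3.06 in the non-stress libraries and 3.62 and 3.78 in the stress libraries, with overlapping groups.

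SCO2, a copy of SCO1 whose loss leaves respiration intact in yeast, rose 4.52-fold, from 60.4 and 60.0 to 263.9 and 279.8 FPKM. The order of the copies differed between the groups: SCO1 was at 0.546 and 0.587 of the level of SCO2 in the non-stress libraries and at 1.81 and 1.65 times that level in the stress libraries. The groups did not overlap, and an exact two-sided permutation test over the libraries gave p = 0.333, the smallest that 2 libraries against 2 allow. Groups that do not overlap always give this value, so the test adds nothing to the ratios. The coding sequences of SCO1 and SCO2, like those of all 45 genes, share no window of 50 bases with another coding sequence. COX11, which delivers copper to the Cox1 subunit, rose 4.37-fold, from 41.3 and 36.8 to 167.4 and 173.7 FPKM.

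The other small cysteine-rich proteins of the intermembrane space were higher as well, to different degrees. CMC2, the one gene of the 45 whose coding sequence is in 2 parts, went from 66.4 and 69.4 to 830.2 and 840.2 FPKM, a 12.3-fold rise. CMC1, its relative, rose 5.80-fold to 423.3 and 415.7 FPKM. COX19 rose 3.25-fold (69.8 and 60.6 to 211.0 and 213.6 FPKM) and COX23 3.12-fold (60.5 and 50.5 to 169.7 and 176.2 FPKM). In each of these the stress libraries lay close together and well above the non-stress libraries.

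Heme a is made from heme b in successive steps, by COX10 (heme O synthase) and then by COX15 (heme A synthase). COX15 rose from 95.5 and 94.8 to 427.8 and 399.8 FPKM, a 4.35-fold rise (log2 fold change 2.11 ± 0.0537 SE). COX10 was 1.42-fold higher, at 20.2 and 20.5 against 27.9 and 30.0 FPKM (log2 fold change 0.49 ± 0.0775 SE, adjusted p = 0.000257 by limma), and was not called when ribosomal protein genes were left out of the FPKM sums (0.06, adjusted p = 0.462). The level of COX15 over that of COX10 went from 4.74 and 4.62 to 15.3 and 13.3.

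The 8 other assembly factors of complex IV were all higher (against 39.8% of all genes tested), with a median log2 fold change of 2.18. COX14, a small membrane protein that binds new Cox1 and takes part in the feedback on its synthesis, rose 7.30-fold, from 132.4 and 130.2 to 971.3 and 945.0 FPKM. PET117 and PET191, small factors needed for oxidase assembly, rose 6.74-fold (30.1 and 24.6 to 188.1 and 180.2 FPKM) and 5.73-fold (43.5 and 36.4 to 220.6 and 237.2 FPKM). COX16 and PET100, a factor that gathers Cox7, Cox8 and Cox9, rose 4.64-fold and 4.57-fold, and COX20, a chaperone of Cox2, 3.98-fold. Smaller rises were found for SHY1, the yeast relative of the human gene SURF1, at 2.81-fold (51.8 and 49.5 to 142.2 and 142.2 FPKM), and for COX18, which exports the tail of Cox2 through the inner membrane, at 1.52-fold (45.3 and 45.6 to 69.2 and 69.4 FPKM).

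The activators of the 3 oxidase messages moved unequally. MSS51 (chrXII:550650-551960, minus strand), which activates COX1 translation and also binds the new Cox1 protein, was the activator with the largest rise, from 103.8 and 102.9 to 769.2 and 789.3 FPKM, or 7.54-fold (log2 fold change 2.90 ± 0.0482 SE, adjusted p = 3.44e-11 by limma). PET309, the other activator of COX1, rose 1.72-fold, from 14.6 and 12.4 to 23.7 and 22.5 FPKM. MSS51 stood at 7.13 and 8.31 times the level of PET309 in the non-stress libraries and at 32.4 and 35.1 times in the stress libraries. PET111, the activator of COX2, rose 2.98-fold, from 13.9 and 11.9 to 37.8 and 39.0 FPKM.

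The COX3 message depends on PET54, PET122 and PET494, which act together at the inner membrane. PET494 rose 4.87-fold, from 46.7 and 40.6 to 212.3 and 212.8 FPKM (log2 fold change 2.26 ± 0.0709 SE). PET54 was 1.35-fold higher, at 41.3 and 39.3 against 52.7 and 56.3 FPKM (log2 fold change 0.42), though this was -0.01 with ribosomal protein genes left out of the sums. PET122 had 24.7 and 20.9 FPKM in the non-stress group and 24.1 and 25.5 FPKM in the stress group, with overlapping groups and no call (log2 fold change 0.12 ± 0.0944 SE, adjusted p = 0.248 by limma). PET122 was called higher without non-stress replicate 1 (0.24, adjusted p = 0.0321) and after quantile normalization (0.51), and lower with ribosomal protein genes left out of the sums (-0.30, adjusted p = 0.013), so no direction can be given. PET494 was at 1.89 and 1.94 times the level of PET122 in the non-stress libraries and at 8.79 and 8.36 times in the stress libraries.

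All 10 genes for the ATP synthase were higher under stress (against 39.8% of all genes tested), with a median log2 fold change of 1.26. Of the factors that build its catalytic F1 head, ATP12, the chaperone of the alpha subunit, rose 4.91-fold (23.0 and 21.7 to 106.1 and 113.3 FPKM), FMC1, needed for F1 assembly at raised temperature, 4.20-fold (55.1 and 55.3 to 229.6 and 234.9 FPKM), and ATP11, the chaperone of the beta subunit, 3.53-fold (113.1 and 121.5 to 410.6 and 417.6 FPKM). ATP10 and ATP23, which work on the Atp6 subunit of the membrane part, rose 1.98-fold (34.6 and 30.9 to 64.5 and 65.0 FPKM) and 1.86-fold (25.01 and 24.25 to 43.6 and 48.2 FPKM).

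Among the factors for mitochondrial messages of the ATP synthase, those for the Atp9 message (OLI1) were ATP25, AEP1 and AEP2. ATP25, which stabilizes that message, rose 3.83-fold, from 35.6 and 33.9 to 136.0 and 129.5 FPKM. AEP1 rose 2.69-fold (53.2 and 50.6 to 137.8 and 141.6 FPKM) and AEP2 2.19-fold (25.2 and 23.9 to 52.7 and 55.0 FPKM). AEP3, which acts on the joint message of ATP6 and ATP8, rose 1.71-fold to 22.3 and 24.6 FPKM. ATP22, the translational activator of ATP6, was 1.48-fold higher, at 24.0 and 23.2 against 34.2 and 35.5 FPKM, and was not called with ribosomal protein genes left out of the sums (0.11, adjusted p = 0.167).

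Complex II, succinate dehydrogenase, has no mitochondrially made subunit. SDH6 and SDH7, small proteins that guard the iron-sulfur subunit while it is assembled, rose 9.03-fold (51.7 and 65.6 to 522.4 and 536.1 FPKM) and 7.84-fold (58.2 and 61.9 to 454.5 and 487.1 FPKM). SDH5, which attaches the flavin to Sdh1, rose 4.47-fold, from 95.3 and 97.9 to 409.9 and 452.9 FPKM. All 3 were at least 4-fold higher on the log2(FPKM + 1) scale, against 8.28% of all genes tested.

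Set against the role groups, the 15 activators and processing factors had a median log2 fold change of 0.74 (range -0.54 to 2.90), with 12 higher, 1 lower and 2 not called, and 7 at least 2-fold higher. The 30 assembly factors had a median of 2.15 (range 0.49 to 3.92), with all 30 higher and 25 at least 2-fold higher. For these groups and the lists below, the shares among all genes tested were 39.8% higher, 47.9% lower and 19.0% at least 2-fold higher. A list of 18 other genes for mitochondrial RNA processing and general translation had a median of 0.94, with 16 higher and 1 lower, led by the elongation factors MEF1 (2.75) and TUF1 (2.65); MSS116 (-0.53) was lower and PET130 (0.17) was not called, both named after their values were seen. A list of 16 other assembly and membrane insertion genes had a median of 1.70, with 15 higher, led by RCF1 (3.58) and COA2 (3.38), and with FMP25 (-0.92), named after its values were seen, lower. These medians describe the lists, and the difference between them was not tested.

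**Figure D2:**
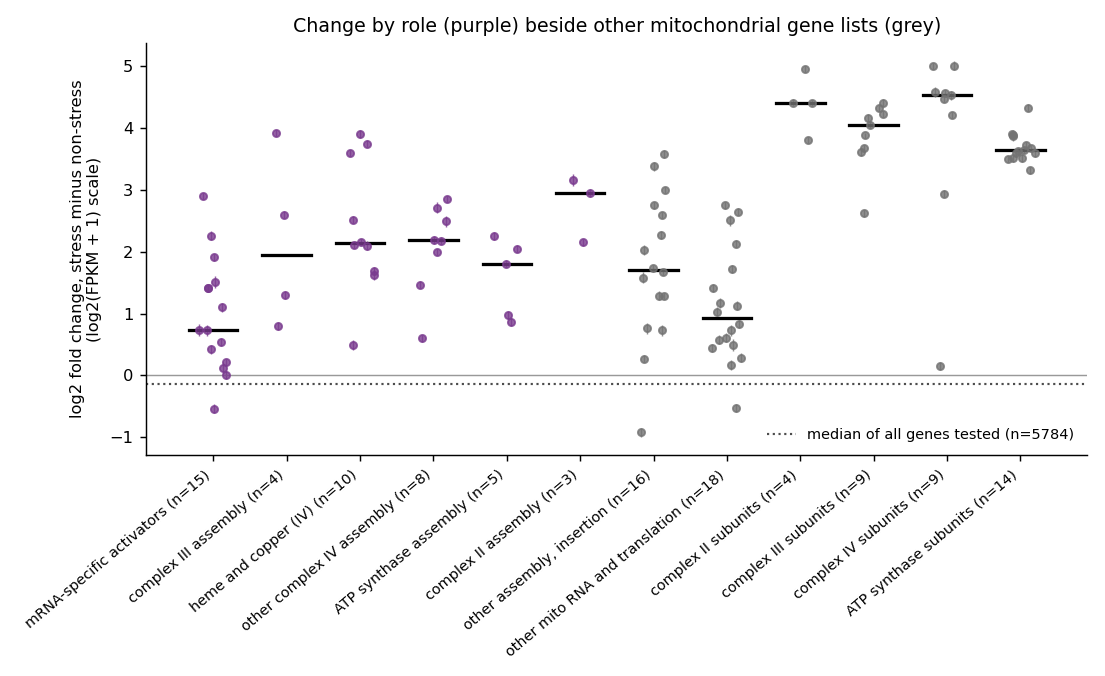
Log2 fold change (stress minus non-stress, log2(FPKM + 1) scale) of single genes with the standard error from limma as a bar, by role group of the 45 genes (purple) and for other mitochondrial gene lists (grey); black bars are medians and the dotted line is the median of all genes tested. The activators centre on 0.74, the assembly groups between 1.81 and 2.95 and the subunit lists between 3.64 and 4.53.

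The nuclear subunits of the same complexes rose further. Of 36 nuclear subunit genes, 35 were higher (against 39.8% of all genes tested) and COX5B (0.15, named after its values were seen) was not called. Medians were 4.41 for complex II, 4.05 for complex III, 4.53 for complex IV and 3.64 for the ATP synthase. Among them were SDH2 (4.96) and SDH3 (4.41), QCR7 (4.41) and RIP1 (4.33), COX12 (5.01) and COX5A (5.00), and ATP20 (4.33) and ATP14 (3.90). The summed FPKM of the assembly factors and activators of each complex was a smaller part of that of its nuclear subunits under stress. For complex II it was 41.0% and 43.9% of the subunit sum without stress and 13.3% and 14.1% with it. For complex III it was 19.7% and 19.4% against 9.53% and 9.56%, and for the ATP synthase 15.5% and 15.7% against 3.73% and 3.80%. For complex IV the 24 factors summed to more than the 9 subunits in the non-stress libraries, at 117% and 105%, and to 39.0% and 38.9% of them in the stress libraries. The groups did not overlap in any of the complexes, and multiplying a library by 1 factor leaves these percentages as they are, while quantile normalization would not. The mitochondrially encoded partners of these genes (8 listed) are absent from the values used and were not analysed here.

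**Figure D3:**
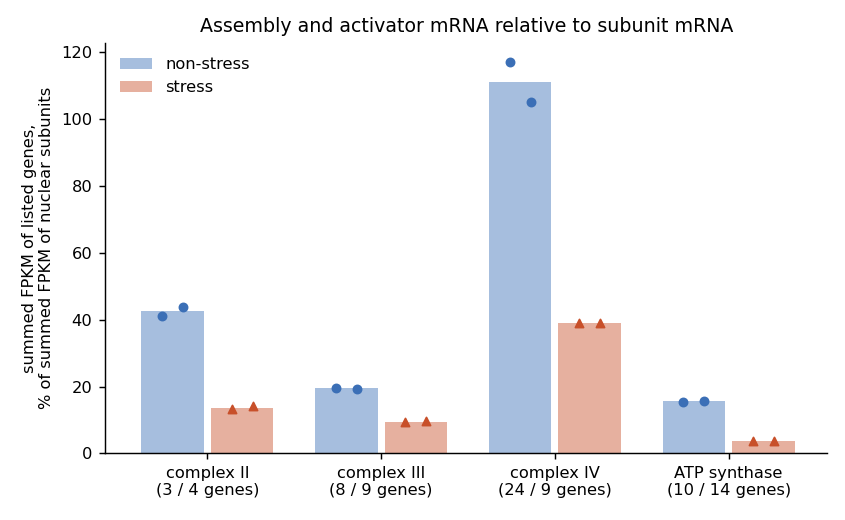
Summed FPKM of the assembly factors and activators of each complex as a percentage of the summed FPKM of its nuclear subunits; points are the 4 libraries and bars the means of each group, with the numbers of genes in both sums under each pair. For complex IV the mean was 111% without stress and 38.9% with it.

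The elements around the coding sequences were then set side by side for assembly and subunit genes, as a description. The element TGTANATA was present after the stop codon of 17.6% of 34 nuclear subunit genes and 14.4% of all genes, against 84.4% of the 45 genes, 87.5% of the 16 other assembly genes and 72.2% of the 18 other genes of mitochondrial RNA and translation. In 300 bases after the stop codon it was present for 29.4% of the 34 subunit genes, 16.5% of all genes and 84.4% of the 45 genes. The CCAAT box, bound in yeast by the Hap2/3/4/5 complex that activates respiratory genes, was searched on both strands in the 300 bases before the start codon. It was present for 91.2% of the 34 subunit genes, but for 46.7% of the 45 genes, close to the 42.1% of all genes. Among the 45 genes, the median log2 fold change was 1.63 with a CCAAT match and 1.98 without, an order that turned in a window of 500 bases (2.04 with and 1.47 without). The letters CCCCT, the core of the stress response element of Msn2 and Msn4, were searched in the same window. They were found for 22.2% of the 45 genes, 35.3% of the 34 subunit genes and 22.4% of all genes. Of 5 HAP regulators, 4 were higher under stress, against 39.8% of all genes tested. Among them, HAP4 (the activation subunit of the complex) rose from 71.7 and 64.5 to 678.7 and 706.0 FPKM and HAP5 5.01-fold. HAP1 (-0.36), named after its values were seen, was lower. These are matches of letters, and binding was not measured.

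**Figure D4:**
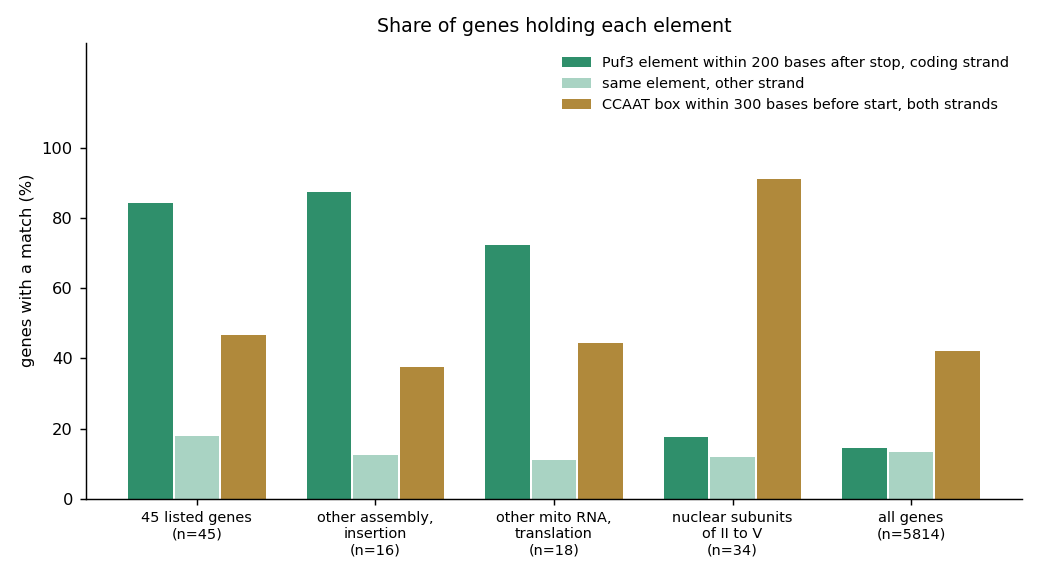
Percentage of genes with a match to the Puf3 element in the 200 bases after the stop codon, on the coding strand (dark green) and on the other strand (light green), and to the CCAAT box in the 300 bases before the start codon (brown), by gene list. The assembly lists are high in dark green, and the nuclear subunits in brown.

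Among the 45 genes the larger changes were found in short genes. The 15 genes with a coding length under 500 bases had log2 fold changes from 1.63 to 3.91 with a median of 2.52, the 13 genes of 500 to under 1000 bases a median of 1.81, and the 17 genes of 1000 bases or more a median of 1.30. Over all genes tested the medians of the same length classes were 0.09, -0.06 and -0.19. Spearman's rho between coding length and log2 fold change was -0.59 over the 45 genes and -0.06 over all genes tested, across genes that share the same libraries. Length and role go together, since the activators are long (median coding length 1743 bases, against 501 for the assembly factors). Within the 30 assembly factors rho was -0.61, and within the 15 activators 0.08. Short genes among the 45 were also more abundant before the change: rho between coding length and mean non-stress FPKM was -0.51, and between that level and the log2 fold change 0.56, where all genes gave -0.23.

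**Figure D5:**
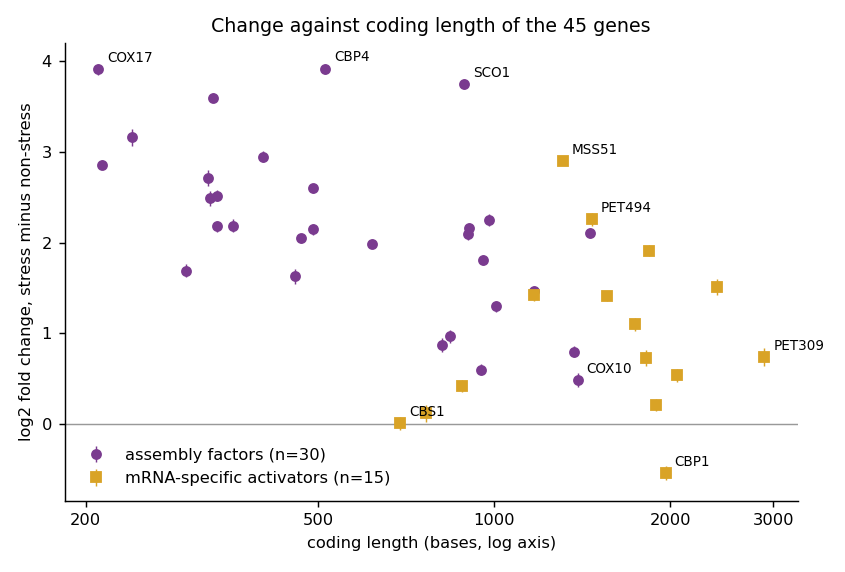
Log2 fold change (stress minus non-stress) with its standard error from limma against coding length (log axis) for the 30 assembly factors (purple circles) and the 15 activators (yellow squares). Genes such as COX17 (3.91) lie high at short lengths, while the activators spread from CBP1 (-0.54) to MSS51 (2.90) with no order by length.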

How the data were processed

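Per the file headers, the authors deposited FPKM values for each gene in each of the 4 libraries, in 1 table. The submitters' processing notes name HISAT2 2.1.0, Bowtie2 2.2.5, RSEM 1.2.8 and build R64, without roles; read filters and strand use are not given in the sources used here. Per the labels' protocols, RNA with poly(A) tails was purified on magnetic beads. Of the deposited lengths 98.8% are multiples of 3, hence coding lengths. No annotated gene overlaps any of the 45 genes.

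Depth was estimated from low FPKM values of genes without shared sequence, as whole multiples of 1 read (97.8% to 100% within 0.1 of a whole number, 35 to 53 values per library). FPKM are not counts, so no count test was run. The main test was limma 3.58.1 (R 4.3.3; lmFit, eBayes with trend) on log2(FPKM + 1), two-sided, over the 5784 genes that reached 1 FPKM in 2 or more libraries (113 left out), Benjamini-Hochberg adjusted over all of them. Fold changes on this scale understate changes of low genes; a fold given plainly is one group's mean FPKM over the other's. The test was run on simulated data in which few genes changed, up and down alike. That setting differs from these data, where most genes are called, so it does not vouch for the calls made here. Elements were searched in R64 sequence (RefSeq). Python 3.11.15, pandas 2.3.3, numpy 2.4.6 and matplotlib 3.10.9 were used.

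The 45 genes, the role groups and the lists were chosen with earlier results of these data known. All 45 may be named; of each other list, the 2 genes with the largest called change and a mean FPKM of at least 20. Alternatives were other scalings, filters, pseudocount and threshold, a replicate block and each library left out; other element windows were chosen with the data in view. The listed gene NAM1 was not analysed here.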

Additional observations from a re-analysis of the deposited data

How the results depend on the processing

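Of 585 results for single genes of the 45 under alternatives, 570 kept their call and, where called, their direction. This held throughout for 39 of the 45 genes. The others were CBP2, CBS1, COX10, PET54, PET122 and ATP22. Scaling mattered most. The median log2 fold change of all genes was -0.14, and 0.09 after quantile normalization, 0.05 after median centring, -0.22 with equal FPKM sums and -0.57 with cytosolic ribosomal protein genes left out of the sums; these gave 2692, 2658, 2138 and 1606 genes higher and 2381, 2447, 2933 and 3574 lower, against 2300 and 2771. Under the same settings the median of the 45 genes was 1.91, 2.09, 1.82 and 1.47. Without ribosomal protein genes in the sums 4 of the 45 were lower and 38 higher, and the signs of CBP2 (-0.22), CBS1 (-0.41), PET54 (-0.01) and PET122 (-0.30) turned. This setting multiplies all values of a library by 1 factor, which here lowered the stress values relative to the non-stress values. Leaving out each library in turn gave 41 to 43 of the 45 higher and 1 lower, with medians of 1.87 to 1.94; over all genes it gave 2133 to 2342 higher and 2610 to 2804 lower, with medians of -0.16 to -0.11. The replicate numbers were not shown to pair the libraries (correlation of deviations -0.00503), and with the replicate number as a block 42 were higher and 1 lower, as without it. In windows of 100 and 300 bases after the stop codon, chosen after the data were seen, TGTANATA was present for 66.7% and 84.4% of the 45 genes, 11.8% and 29.4% of the nuclear subunit genes and 10.4% and 16.5% of all genes. In 500 bases before the start, CCAAT was present for 66.7% of the 45 genes and 62.7% of all genes. With 2 libraries per group, small changes such as that of CBP2 lie near the limit of detection.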
